A study of Mus musculus with 27 samples.

Results

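The Myc and Max network is a group of related transcription factors that share the partner Max. It was taken here as 8 genes, Myc, Max, Mxd1, Mxd4, Mxi1, Mnt, Mlx and Mga, chosen by symbol among the 45070 genes of the table, and all 8 passed the filter on low values. The study asked how clinical kinase inhibitors alter macrophage responses, and these data are its time courses without an inhibitor. Chromatin-associated RNA, which is rich in transcripts still being made, was sequenced from mouse bone marrow-derived macrophages (BMDMs), macrophages grown in culture from marrow. All 27 samples were wild type, from male C57/BL6 mice aged 6 to 8 weeks per the study's methods, and all were kept for 1 h with DMSO, the solvent of the inhibitors. Of the 9 groups, each with 3 replicates, 1 was then left untreated, 4 were given lipopolysaccharide (LPS, a bacterial cell wall component) at 10 ng/ml for 0.5, 1, 2 or 4 h, while 4 were given interleukin-4 (IL-4) at the same dose for the same times. Untreated cells form a single group without a time point, so a change of time in culture and a change by a stimulus cannot be told apart against untreated, while LPS and IL-4 can be compared at each time. The sources used here do not say whether replicates came from separate mice or cultures, so the p-values measure the spread between these samples, which may be technical.

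Myc binds DNA as a dimer with Max at E-boxes, of which CACGTG is the preferred form, and drives genes of ribosome production, metabolism and growth. Mxd1, Mxd4, Mxi1 and Mnt compete with Myc for Max and for the same sites and bring repressor complexes there, so they are called antagonists of Myc. Mlx is a Max-like partner of Mnt, of some Mxd proteins and of glucose-sensing factors, and Mga is a very large Max partner found in a Polycomb-type repressor complex. In macrophages Myc is known as an early gene after mitogenic and IL-4 signals, and Mxd1 is known from myeloid differentiation.

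The deposited values are normalised read counts, called values here, so their sums are not sequencing depths and the depth behind a value is unknown. The sums were 2469768 to 2790981 in untreated and IL-4 samples and 3571492 to 4058199 in LPS samples. Macrophage markers (8 genes, Csf1r and Adgre1 among them, none at 0) summed to between 10027 and 11141 in untreated samples, 11122 and 19679 after LPS and 10976 and 14044 after IL-4. The 7 neutrophil markers reached at most 91 in sum, the 6 T cell markers 37, the 4 B cell markers 7, the 4 dendritic cell markers 97, the 4 mast cell and basophil markers 9 and the 4 erythroid markers 2, with Ly6g, Cd3e, Cd3g, Xcr1, Tpsb2, Hba-a1 and Hbb-bs at 0 in every sample, while the 5 fibroblast markers summed to between 28 and 218. Replicate 1 stood apart from replicates 2 and 3 in all groups. Its 6 cycling-cell markers summed to a median of 179 over the 9 groups (range 113 to 909), against 901 (265 to 1819) in replicate 2 and 1052 (270 to 1899) in replicate 3. The same sums also moved with treatment. In replicates 2 and 3 they were 1370 and 1304 in untreated cells, 1819 and 1899 at 0.5 h and 265 and 270 at 4 h of LPS, and 532 and 561 at 4 h of IL-4, and in replicate 1 they were 172, 909, 191 and 113 in these groups. The part of cycling cells in the results below was not tested. Results were recomputed without each replicate, blocked by replicate number, with sample weights and with replicates 2 and 3 averaged. In bulk samples, fewer cells of a type and less RNA per cell cannot be told apart.

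The network moved after either stimulus. LPS raised Myc at 0.5, 1 and 4 h and Mxd1 at every time, lowered Max at 0.5 h and raised it at 2 and 4 h, and brought Mxd4, Mxi1, Mnt and Mlx down. IL-4 raised Myc at all 4 times and Max at 1 and 2 h, and lowered Mxi1 at all times, Mxd1 at 0.5 and 1 h, Mxd4 at 0.5 h and Mnt at 2 h. Mxd1 thus rose with LPS and fell with IL-4 at the 2 early times, while Myc rose with both. A gene was called when its Benjamini-Hochberg adjusted p, over the 13901 genes tested with limma, was under 0.05. Over the LPS course all 8 members were called, where 87.6% of all tested genes were. Without replicate 3, Mlx and Mga were not called over this course (F test adjusted p = 0.0849 and 0.101). Mga was also not called with replicates 2 and 3 averaged (0.0605). Against untreated, LPS changed 5 members at 0.5 h (background 53.9% of genes), 5 at 1 h (63.8%), 6 at 2 h (65.9%) and 7 at 4 h (63.5%). The counts after LPS are therefore near the background, and what sets members apart is described below by size and direction, not by count. Over the IL-4 course 6 of the 8 members were called, where 40.3% of genes were. IL-4 changed 4 members at 0.5 h (background 16.3%), 4 at 1 h (21.0%), 4 at 2 h (27.6%) and 3 at 4 h (25.9%). Without replicate 2 or replicate 3 the count for the IL-4 course fell to 2 members, Myc and Mxi1, and without replicate 1 it was 7.

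Between successive LPS times, 4 members changed from 0.5 to 1 h (background 49.7%), 6 from 1 to 2 h (43.3%) and 3 from 2 to 4 h (22.9%). Of the latter, 5 were called without replicate 1, 1 without replicate 2 and 0 without replicate 3. Between successive IL-4 times, 1 member changed from 0.5 to 1 h (background 7.82%), 2 from 1 to 2 h (9.4%) and 1 from 2 to 4 h (5.48%). No member was called in these 3 IL-4 steps when replicate 2 or replicate 3 was left out, and 2, 3 and 2 were called without replicate 1. Changes are given below as differences of log2(value + 1), which understates the change of low genes, with the standard error (SE) of the fit. After LPS the median tested gene lay 0.24 to 0.30 lower than in untreated cells on this scale, and rescaling by medians of ratios brought it to between 0.00 and -0.03, while forcing equal totals brought it to between -0.75 and -0.95. Directions of members were checked under both, and the exceptions are named.

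**Figure D1:**
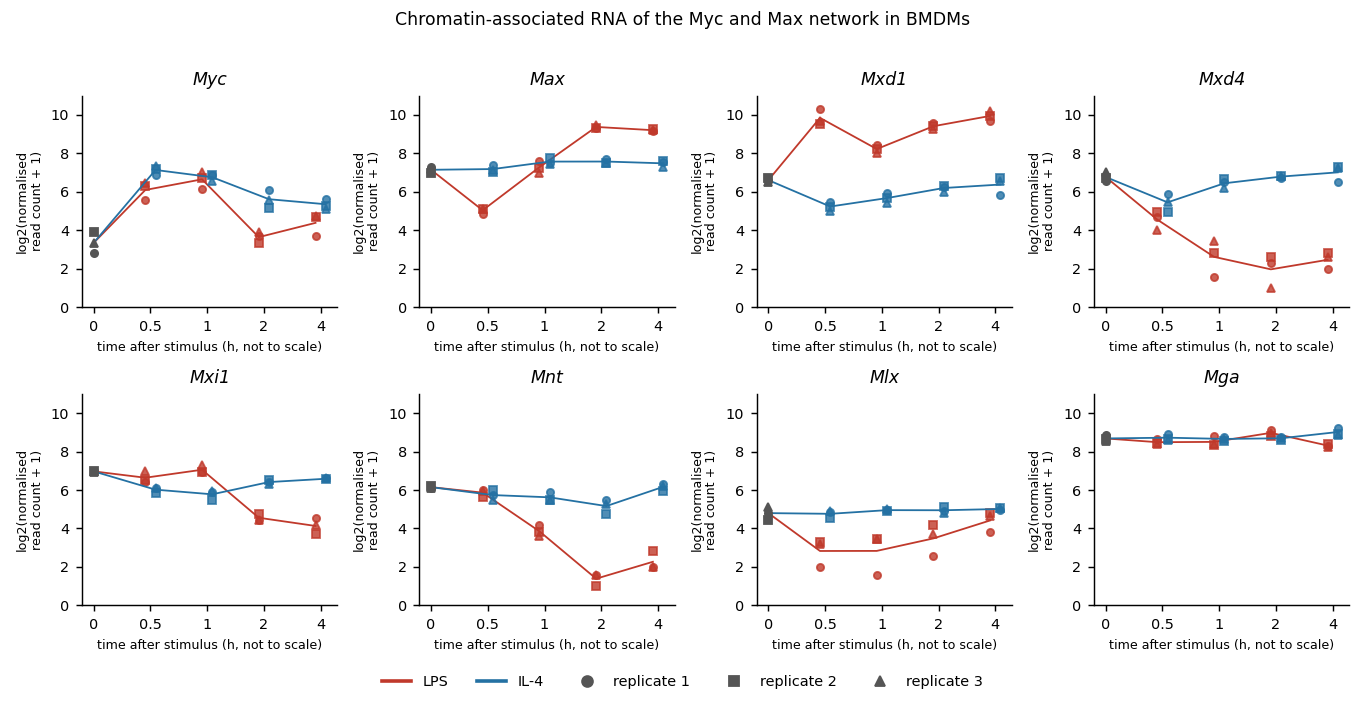
Normalised read counts of the 8 members as log2(value + 1), on the vertical axis, in untreated cells (time 0, grey) and at the 4 times (0.5 to 4 h) after LPS (red) or IL-4 (blue). Symbols are replicates 1, 2 and 3, lines join group means, and times are evenly spaced; Myc peaks early with both stimuli, Mxd1 separates them at all times, and Mxd4 and Mnt fall to values of 10 or less by 2 h of LPS.

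Myc, the activator, was low in untreated cells. The gene lies at chr15:61985341-61990361 on the plus strand (GRCm38, as all positions here), is protein-coding and overlaps no other annotated gene. Untreated samples had values of 6, 14 and 9 in replicates 1, 2 and 3, so Myc passed the filter through the stimulated groups. With LPS the values were 46, 77 and 86 at 0.5 h, 71, 106 and 130 after 1 h, 12, 9 and 14 at 2 h and 12, 25 and 26 after 4 h. All 6 samples of the first 2 times lay above all untreated samples, and the 2 h samples lay within the untreated range. The log2 difference from untreated was 2.75 (SE 0.36, adjusted p = 1.42e-05) at 0.5 h and 3.30 (adjusted p = 1.32e-06) at 1 h. It was 0.30 at 2 h (95% interval -0.48 to 1.07, adjusted p = 0.486), and from 1 to 2 h Myc fell by 3.01 (adjusted p = 5.9e-06). At 4 h Myc was 1.04 above untreated (adjusted p = 0.0207), a call that was lost without replicate 2 (adjusted p = 0.0665), without replicate 3 (0.182), with no filter (0.0599) and with equal totals (0.25).

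With IL-4, Myc values were 117, 145 and 160 at 0.5 h, 115, 116 and 92 after 1 h, 67, 35 and 47 at 2 h and 49, 38 and 34 after 4 h. Every IL-4 sample lay above every untreated sample, and the highest values stood at the first time. The log2 differences were 3.79 (SE 0.28, adjusted p = 5.75e-07), 3.41 (8.48e-07), 2.27 (3.18e-05) and 2.01 (0.000104) from 0.5 to 4 h. All 4 held in each of the 11 alternatives tried. Myc fell from 108 ± 13.6 to 49.7 ± 16.2 (SD, n = 3) between 1 and 2 h of IL-4 (adjusted p = 0.0188), and this step was not called without replicate 2 (0.257), without replicate 3 (0.219) or with no filter (0.066).

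Pvt1, the long non-coding gene downstream of Myc on the same strand (chr15:62037986-62260215), did not trace the same course. Its values were 389, 559 and 580 in untreated cells and 447, 654 and 742 at 0.5 h of LPS, which overlap. They were 184, 145 and 228 at 2 h and 94, 62 and 68 at 4 h of LPS, below every untreated sample. So at 4 h of LPS Pvt1 fell by 2.75 (SE 0.22, adjusted p = 2.34e-08), and at 0.5 h, when Myc was up, its difference was 0.26 (95% interval -0.21 to 0.73, adjusted p = 0.335). After IL-4, Pvt1 was at 553, 813 and 737 at 0.5 h and reached 1412, 1017 and 1247 at 2 h, a rise of 1.27 (SE 0.23, adjusted p = 0.000868), later than the highest Myc values. Pvt1 overlaps 1 other annotated gene, on the other strand, and reads shared with it could not be separated here.

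Max, the partner that Myc and its antagonists share, lies at chr12:76937269-76962248 on the minus strand, is protein-coding and overlaps no other gene. Its values were 153, 123 and 147 in untreated cells and 28, 34 and 34 at 0.5 h of LPS. They returned to 196, 149 and 125 at 1 h, and then reached 630, 647 and 709 at 2 h and 563, 603 and 599 at 4 h. The 0.5 h samples lay below all others of this course and the 2 and 4 h samples above all others. Max thus fell to 32.0 ± 3.46 (SD, n = 3) at 0.5 h from 141 ± 15.9 (SE of the log2 difference 0.15, adjusted p = 2.58e-08) and rose by 2.23 at 2 h (4.91e-09) and 2.06 at 4 h (1.23e-08). The steps from 0.5 to 1 h and from 1 to 2 h were rises of 2.24 (2.71e-08) and 2.09 (3.04e-08). At 1 h the difference from untreated was 0.13 (95% interval -0.20 to 0.46, adjusted p = 0.468), and its sign depended on the scaling: it was 0.39 (adjusted p = 0.0414) with medians of ratios and -0.45 (0.0157) with equal totals.

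IL-4 moved Max far less. Values were 167, 130 and 138 at 0.5 h, 181, 213 and 175 after 1 h, 207, 182 and 180 at 2 h and 186, 190 and 158 after 4 h. From 1 h on, all IL-4 samples lay above the highest untreated sample. The rises at 1 and 2 h were both 0.43 (SE 0.12, adjusted p = 0.0254 and 0.02), and at 4 h the difference was 0.34 (adjusted p = 0.0643, or 0.0299 when blocked by replicate number). Both calls were lost without replicate 2 (adjusted p = 0.386 and 0.142) and without replicate 3 (0.111 and 0.0988), and the 1 h call also with no filter (0.0598) and under either rescaling (0.0544 and 0.0933).

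Among the antagonists, Mxd1 went up with LPS. The gene lies at chr6:86647044-86669159 on the minus strand and is protein-coding. Values were 95, 106 and 89 in untreated cells and 1245, 745 and 833 at 0.5 h of LPS. They then stood at 346, 293 and 260 after 1 h, 765, 677 and 604 at 2 h and 830, 974 and 1178 after 4 h. Every LPS sample was above every untreated sample, with a dip at 1 h between higher values. The rises were 3.24 (SE 0.18, adjusted p = 1.45e-09), 1.62 (1.9e-06), 2.80 (2.54e-09) and 3.34 (3.26e-10) from 0.5 to 4 h. The dip itself was called on either side, as a fall by 1.62 from 0.5 to 1 h (3.64e-06) and a rise of 1.19 from 1 to 2 h (7.28e-05). These 6 calls held in all 11 alternatives. A further rise of 0.53 from 2 to 4 h (adjusted p = 0.0476) was lost without replicate 2 (0.249), without replicate 3 (0.493), with no filter (0.134) and with medians of ratios (0.0755).

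With IL-4, Mxd1 went the other way. Its values were 44, 36 and 31 at 0.5 h, 61, 50 and 41 after 1 h, 76, 79 and 63 at 2 h and 56, 104 and 95 after 4 h. The 0.5 to 2 h samples all lay below the untreated ones, and the 4 h samples overlapped them. Mxd1 fell by 1.37 at 0.5 h (SE 0.22, adjusted p = 0.000583) and by 0.93 at 1 h (0.00721), with differences of -0.41 at 2 h (0.197) and -0.23 at 4 h (0.51). Without replicate 2 neither fall was called (adjusted p = 0.0519 and 0.139), and without replicate 3 the 1 h fall was not (0.108). A non-coding gene, Gm38850, lies within Mxd1 on the same strand and shares 9111 bases with it. Its mean of 34.3 in untreated cells went to 408 within 0.5 h of LPS, then to 122 after 1 h, and to 15 within 0.5 h of IL-4. Whether reads were shared between the 2 genes is not given in the sources used here.

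Mxd4, the antagonist with the highest value per kilobase (kb) of gene span in untreated cells, was nearly lost after LPS. It lies at chr5:34176580-34187710 on the minus strand, is protein-coding and overlaps no other gene. Values of 93, 105 and 129 in untreated cells went to 25, 30 and 15 at 0.5 h of LPS, and to 2, 6 and 10 at 1 h. They were 4, 5 and 1 at 2 h and 3, 6 and 5 at 4 h. No LPS sample reached an untreated one. The falls were by 2.22 (SE 0.48, adjusted p = 0.00122), 4.15 (2.44e-06), 4.80 (3.72e-07) and 4.30 (1.29e-06), and all 4 held in the 11 alternatives, although values this low carry large relative error. With IL-4 the values were 59, 30 and 44 at 0.5 h, 89, 99 and 72 after 1 h, 105, 113 and 111 at 2 h and 90, 154 and 151 after 4 h. Mxd4 was down by 1.32 at 0.5 h of IL-4 (SE 0.24, adjusted p = 0.00172), with no overlap between the groups, and up by 0.99 from 0.5 to 1 h (0.0245). Without replicate 2 the adjusted p of these was 0.0689 and 0.436, and without replicate 3 it was 0.0794 and 0.214, and with no filter the second was 0.0809.

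Mnt, the antagonist present in most cell types, was called lower from 1 h of LPS on, and Mxd4 from 0.5 h on. It lies at chr11:74830924-74845725 on the plus strand, is protein-coding and overlaps no other gene. Values of 69, 73 and 68 in untreated cells compared with 64, 48 and 61 at 0.5 h of LPS. They were 17, 13 and 11 after 1 h, 2, 1 and 2 at 2 h and 3, 6 and 3 after 4 h. The 0.5 h samples lay just under the untreated range and the later ones far under it. The difference at 0.5 h was -0.29 (95% interval -0.91 to 0.34, adjusted p = 0.431), and with equal totals it was -0.79 (adjusted p = 0.0209). The falls after 0.5 h were by 2.30 (SE 0.29, adjusted p = 5.99e-06), 4.76 (1.12e-09) and 3.88 (1.22e-08). The timing of Mnt against Mxd4 was not tested. From 2 to 4 h the fit gave a rise of 0.88 (0.04) between groups with no value over 6, and it was lost without replicate 2 (0.534), without replicate 3 (0.145), with no filter (0.0502) and with a pseudocount of 8 (0.229). With IL-4 the values were 52, 64 and 43 at 0.5 h, 59, 44 and 43 after 1 h, 44, 26 and 37 at 2 h and 78, 61 and 74 after 4 h. Mnt fell by 0.98 at 2 h of IL-4 (SE 0.20, adjusted p = 0.00215) and was 0.01 from untreated at 4 h (95% interval -0.42 to 0.44), a rise of 1.00 between these times (0.0108) that was lost without replicate 2 (0.133) or replicate 3 (0.24). At 1 h of IL-4 the difference was -0.53 (adjusted p = 0.0808, or 0.0436 when blocked by replicate number and 0.0401 without replicate 1).

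Mxi1, the third Mxd-type antagonist, lies at chr19:53310506-53373293 on the plus strand and is protein-coding. The non-coding gene Gm30541 overlaps it on the other strand over 16362 bases, with group means of 8.67 to 29.3. Mxi1 values were 127, 126 and 120 in untreated cells, 85, 91 and 124 at 0.5 h of LPS and 122, 122 and 154 at 1 h. They then went to 21, 26 and 21 at 2 h and 22, 12 and 17 at 4 h. The first 2 LPS times overlapped untreated and the last 2 lay far below it. So Mxi1 fell by 2.41 at 2 h (SE 0.21, adjusted p = 8.58e-08) and by 2.84 at 4 h (1.28e-08), and it had not changed detectably at 1 h (difference 0.08, 95% interval -0.37 to 0.54, adjusted p = 0.746). With IL-4 the order was the reverse. Values were 68, 57 and 67 at 0.5 h, 59, 44 and 60 after 1 h, 83, 91 and 79 at 2 h and 96, 93 and 96 after 4 h, all below all untreated samples. The falls were by 0.95 (SE 0.12, adjusted p = 9.49e-05), 1.19 (7.82e-06), 0.56 (0.00372) and 0.38 (0.0336). From 1 to 2 h Mxi1 regained 0.64 (0.00499), which was not called without replicate 2 (0.15) or replicate 3 (0.0928). The 2 h fall was not called without replicate 3 (0.0883), and the 4 h fall was not called without any of replicates 1, 2 or 3 (0.0986, 0.0996 and 0.185).

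Mlx, the Max-like partner, was a low gene that dropped early with LPS. It lies at chr11:101087290-101092207 on the plus strand, is protein-coding, and shares its last 67 bases with Psmc3ip on the other strand, whose values did not pass 10. Mlx values were 27, 21 and 34 in untreated cells, 3, 9 and 8 at 0.5 h of LPS, 2, 10 and 10 after 1 h, 5, 17 and 12 at 2 h and 13, 27 and 24 after 4 h. Replicate 1 was the lowest of the 3 at each LPS time, and the groups did not overlap untreated until 4 h. The falls were by 1.97 (SE 0.54, adjusted p = 0.00619), 1.96 (0.0051) and 1.31 (0.0432), and the 4 h difference was -0.38 (95% interval -1.53 to 0.77). The 0.5 and 2 h falls were not called without replicate 3 (adjusted p = 0.0645 and 0.19), and the 2 h fall was not called with medians of ratios (0.0749) or with no filter (0.121). With IL-4 all 12 Mlx values lay between 22 and 34, and no time was called against untreated (F test adjusted p = 0.682, largest difference 0.22, 95% interval -0.17 to 0.60).

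Mga, the large Max partner, lies at chr2:119897228-119969581 on the plus strand, is protein-coding and overlaps no other gene. Values were 465, 395 and 373 in untreated cells, and with LPS 394, 352 and 329 at 0.5 h, 441, 320 and 334 after 1 h, 558, 454 and 496 at 2 h and 317, 334 and 300 after 4 h. The 4 h samples lay below the untreated range and the 2 h samples overlapped it. Between 1 and 2 h Mga rose by 0.47 (SE 0.14, adjusted p = 0.0116) and between 2 and 4 h it fell by 0.66 (0.00274). The first of these was not called without replicate 2 (0.123) or replicate 3 (0.147), nor the second without replicate 3 (0.0864). Against untreated the 2 h difference was 0.29 (adjusted p = 0.076), a call when blocked by replicate number (0.0191), without replicate 1 (0.0142) and with medians of ratios (0.53, adjusted p = 0.0118), and it turned to -0.37 (0.0217) with equal totals. At 4 h of LPS Mga was lower by 0.37 (0.0295), or -0.11 relative to the median gene. That call was lost without replicate 2 (0.0982), without replicate 3 (0.123), with no filter (0.0525) and with medians of ratios (0.501). With IL-4 the values were 481, 400 and 387 at 0.5 h, 433, 378 and 397 after 1 h, 437, 388 and 412 at 2 h and 597, 489 and 471 after 4 h. The 4 h rise of 0.33 (SE 0.11, adjusted p = 0.0469) was lost without replicate 2 (0.237), without replicate 3 (0.226), with no filter (0.107) and under both rescalings (0.17 and 0.0548), and the F test for the course gave 0.0898, or 0.00152 when blocked by replicate number and 0.0121 without replicate 1.

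Since Myc, Max and the antagonists meet at the E-box, the promoters of the members were searched for the letters CACGTG, which read the same on both strands. The table of RefSeq promoters (GRCm38.p6, 250 bases before to 50 after each start) held 9 promoters of 7 members, with 3 for Mxi1. CACGTG was found in 1 promoter each of 4 members, Mxd4, Mnt, Mlx and Max, and in 7.15% of all 32851 promoters of the table. The members' promoters had 55.0% to 76.7% G and C, beside a median of 52.7% over all promoters. These 30-base windows show the match in capitals, with each member's own strand written 5′ to 3′. They are at chr5:34187912-34187941 for Mxd4, chr11:74830789-74830818 for Mnt, chr11:101087238-101087267 for Mlx and chr12:76962234-76962263 for Max.
Mxd4: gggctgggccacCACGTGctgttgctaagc
Mnt: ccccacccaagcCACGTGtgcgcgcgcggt
Mlx: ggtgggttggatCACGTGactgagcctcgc
Max: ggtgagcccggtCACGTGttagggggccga
The first base of the match lies at -219, -123, -40 and -3 relative to the annotated start for Mxd4, Mnt, Mlx and Max. Mxd1, Mxi1 and Mga have no CACGTG in these windows. After LPS, Mxd4, Mnt and Mlx, which have the letters, fell, and Max, which also has them, fell at 0.5 h and rose at 2 and 4 h. Of the members without them, Mxi1 fell, Mxd1 rose at every time, and the 4 h fall of Mga was lost in several alternatives. At 0.5 h of IL-4, Mxd4 fell among members with the letters, and Mxd1 and Mxi1 among those without. Whether the letters bear on these changes was not tested. The GAS-like form bound by STAT factors, TTC and GAA parted by 4 bases, was found in the promoter of Mga and in 1 of those of Mxi1, against 6.95% of all promoters. Patterns for NF-κB, interferon-response, CRE and AP-1 sites were also searched and had no match in the members' promoters. A match is a description of letters, and binding was not measured here.

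Set against each other at the same time, LPS and IL-4 differed in 5 members at 0.5 h (background 53.8% of genes), 5 at 1 h (64.5%), 7 at 2 h (68.6%) and 7 at 4 h (68.0%), close to the shares over all genes. Mxd1 showed the widest gap at 0.5 h, 4.61 higher with LPS than with IL-4 (SE 0.21, adjusted p = 1.72e-14), and stayed 2.55 to 3.57 higher at the later times, with no overlap between the groups. Mxd4 was 3.82 to 4.82 lower and Mnt 1.77 to 3.89 lower with LPS from 1 h on. At 0.5 h neither was called (Mxd4 -0.90, adjusted p = 0.0661, or 0.0418 when blocked by replicate number; Mnt 0.13, adjusted p = 0.705). Mxi1 changed sign within the course. It was 0.62 (0.00589) and 1.28 (1.62e-06) higher with LPS at 0.5 and 1 h, and 1.85 (3.44e-09) and 2.45 (2.22e-11) lower at 2 and 4 h. The 0.5 h difference of Mxi1 was not called without replicate 3 (0.138) or with equal totals (0.277).

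Myc was lower with LPS than with IL-4 by 1.04 at 0.5 h (SE 0.32, adjusted p = 0.00781), by 1.97 at 2 h (7.65e-06) and by 0.97 at 4 h (0.00974). At 1 h the stimuli were not told apart for Myc (difference -0.11, 95% interval -0.76 to 0.55, adjusted p = 0.783), and the samples overlapped. The 0.5 h difference was not called without replicate 3 (0.0554), nor the 4 h one without replicate 1 (0.0727) or with medians of ratios (0.0501). Max changed sign in the opposite order to Mxi1. It was 2.14 lower with LPS at 0.5 h (9.75e-12), and 1.80 and 1.72 higher at 2 and 4 h (7.25e-11 and 1.53e-10). At 1 h the difference was -0.29 (0.0744), which was called without replicate 1 (0.00179) and with equal totals (4.11e-05). Mlx was lower with LPS by 1.93 (0.000562), 2.12 (0.000155) and 1.46 (0.0045) from 0.5 to 2 h. Mga differed at 4 h, by 0.70 lower with LPS (3.72e-05). At 2 h the difference of Mga was 0.28 (adjusted p = 0.0546), which was called when blocked by replicate number (0.00603), with medians of ratios (0.00355) and without replicate 1 (0.0187) and turned to -0.35 (0.0166) with equal totals, and at 0.5 h its difference was -0.23 (0.129, or 0.0245 with the block).

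**Figure D2:**
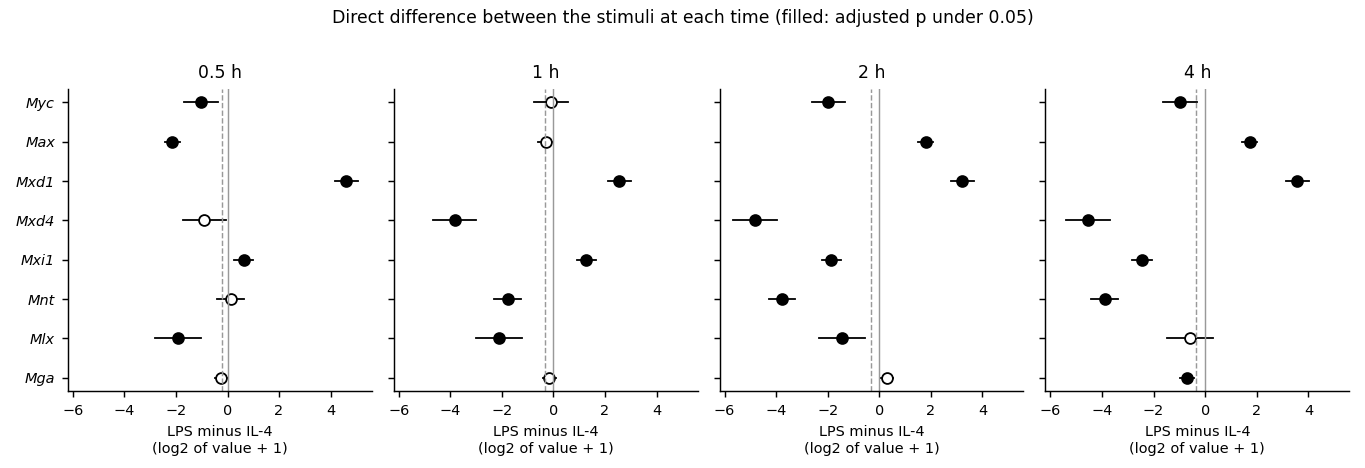
Difference between LPS and IL-4 (LPS minus IL-4, log2 of value + 1, horizontal axis) for each member at each time from 0.5 to 4 h, with 95% intervals of the fit; filled points have an adjusted p under 0.05, the solid line is 0 and the dashed line the median of all tested genes. Mxd1 lies to the right at all times, from 2.55 to 4.61, and Mxi1 and Max cross the line in opposite directions.

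To compare members with each other, values were divided by the kb of gene span, since chromatin-associated RNA includes introns. On that scale untreated cells held 9.79 ± 1.65 for Mxd4 (SD, n = 3), 4.73 ± 0.18 for Mnt, 4.37 ± 0.39 for Mxd1 and 1.98 ± 0.06 for Mxi1, beside 5.64 ± 0.64 for Max, 5.68 ± 0.66 for Mga, 5.56 ± 1.32 for Mlx and 1.93 ± 0.80 for Myc. Mxd4 was above all others in all 3 samples, Myc and Mxi1 were the lowest pair and overlapped, and Mga, Max and Mlx could not be ordered beyond their spread. Mxd4 thus made up 46.7% of the antagonist sum, Mnt 22.7%, Mxd1 21.0% and Mxi1 9.53%. Per kb of transcript the order in untreated cells was Mxd4 (92.5), Mxi1 (32.6), Mxd1 (20.7) and Mnt (15.3). After LPS the antagonist sum per kb of gene span was 84.4% Mxd1 at 0.5 h, 78.9% after 1 h, 97.6% at 2 h and 97.9% after 4 h. After IL-4 Mxd1 made up 16.3%, 16.0%, 19.4% and 17.2% of it. Mxd4 then held the largest mean share at all 4 times, from 38.4% to 58.4%. Any reads shared with Gm38850, which lies within Mxd1, would enter these shares, the sum and the ratios below.

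The antagonist sum was 20.9 ± 1.41 per kb in untreated cells. It was 50.1 ± 12.4 at 0.5 h, 17.1 ± 1.60 after 1 h, 31.6 ± 3.78 at 2 h and 45.9 ± 7.94 after 4 h of LPS, and 10.3 ± 1.42, 14.2 ± 1.82, 16.9 ± 0.29 and 22.0 ± 3.96 at the same times of IL-4. The ratio of Myc to this sum was 0.0915 ± 0.0361 in untreated cells. With LPS it was 0.299 ± 0.135 at 0.5 h and 1.22 ± 0.445 at 1 h, and it was 0.0748 ± 0.0225 and 0.0894 ± 0.0245 at 2 and 4 h, overlapping the untreated range of 0.0618 to 0.132. With IL-4 it was 2.80 ± 0.753 at 0.5 h, 1.51 ± 0.0487 after 1 h, 0.585 ± 0.184 at 2 h and 0.384 ± 0.154 after 4 h, above the untreated range in every sample. The ratio of Max to the sum of Myc and the antagonists was 0.25 ± 0.0465 in untreated cells. LPS samples had 0.0204 ± 0.0046 after 0.5 h and 0.79 ± 0.13 after 2 h, and IL-4 samples 0.153 ± 0.0319 after 0.5 h. These ratios are descriptions with no test, and gene span is only an approximation of the length that gives reads. Whether Myc passes the antagonist sum depends on that length. Per kb of transcript, the mean of Myc at 0.5 h of IL-4 was 58.6. Mxd4 was then at 37.6, Mxi1 at 16.8, Mnt at 11.6 and Mxd1 at 7.94, together more than Myc. On that scale Mxd4 alone (73.5) was above Myc (44.9) at 1 h of IL-4. At 1 h of LPS Mxd1 alone (64.3) was above Myc (42.7). The ratios describe RNA on chromatin, not protein.

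**Figure D3:**
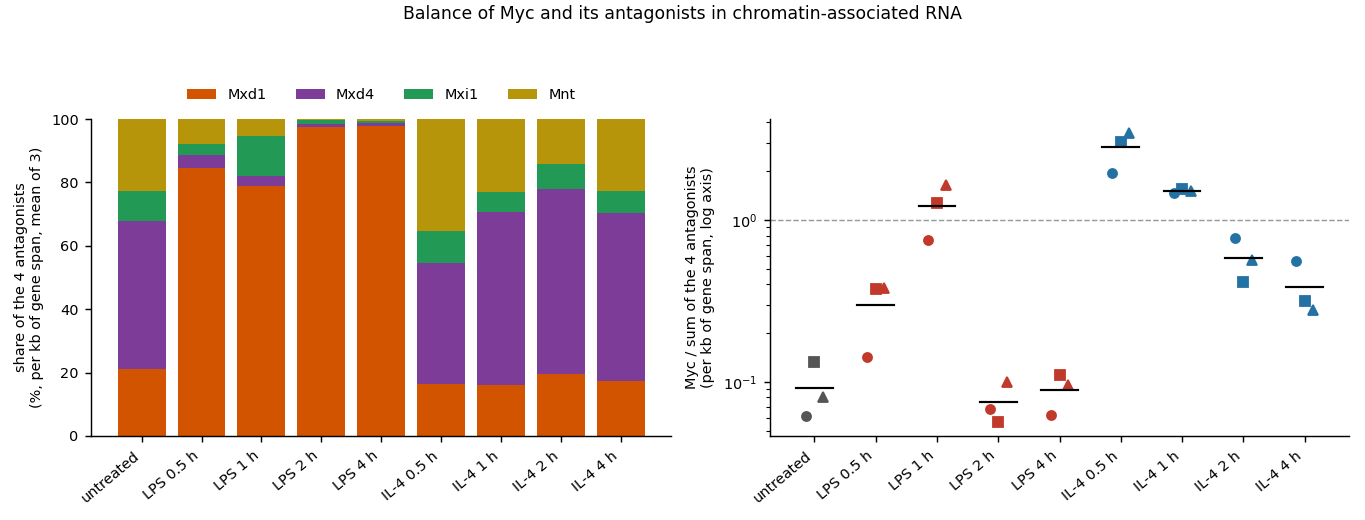
Left, share of Mxd1, Mxd4, Mxi1 and Mnt in their sum per kb of gene span (%, mean of 3 samples) in each group. Right, ratio of Myc to that sum in each sample, on a log axis. Circles, squares and triangles are replicates 1, 2 and 3, bars are means, and the dashed line marks a ratio of 1. Per kb of gene span, the ratio exceeds 1 in all samples at 0.5 and 1 h of IL-4. At 1 h of LPS it does so in 2 of 3. Per kb of transcript, mean Myc stays below the sum in these groups.

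Of the remaining genes of the family, Mycn and Mlxipl never exceeded 2 and Mycl never exceeded 9 in any sample, and they were not tested. Mxd3, tested, had group means of 2.67 to 12.3 and was lower by 1.98 at 0.5 h of LPS (adjusted p = 0.0159), while its F tests gave 0.0722 with LPS and 0.541 with IL-4. Mlxip, a partner of Mlx in glucose sensing, was at 466 ± 17.1 in untreated cells and rose to 1007 ± 158 at 2 h of LPS (log2 difference 1.10, SE 0.14, adjusted p = 5.8e-06) and to 718 ± 42.9 at 1 h of IL-4 (0.62, adjusted p = 0.000262). A list of partners of the network held 18 genes, the corepressors and coactivators that these factors bring to DNA. Of these, 14 were called over the LPS course, 5 higher and 9 lower by largest change, where 87.6% of all genes were. Over the IL-4 course 7 were called, 6 higher and 1 lower, beside 40.3% of all genes. Neither count exceeded the share over all genes. Ep400, of a histone exchange complex that works with Myc, rose by 2.22 at 4 h of LPS (adjusted p = 9.72e-11), Hdac1, a deacetylase of repressor complexes, by 1.97 at 2 h (2.3e-08), and Zbtb17, which pairs with Myc in repression, by 1.73 at 1 h (3.91e-07). Ep400 and Zbtb17 overlap other annotated genes. At 2 h the median log2 difference of the 18 was 0.05 with LPS, beside -0.29 over all genes, and 0.18 with IL-4, beside 0.00.

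A list of nucleolar genes known as targets of Myc (21 genes of ribosome production, 20 of them tested) went up with IL-4. At 2 h of IL-4, 18 of the 20 were higher and 0 lower, with a median log2 difference of 1.03 beside 0.00 over all genes, of which 27.6% were called. At 0.5 h, when Myc itself was highest, 1 was higher and 2 lower, at 1 h 8 were higher and at 4 h 12, with 0 lower at either. Of all genes, 16.3%, 21.0% and 25.9% were called at 0.5, 1 and 4 h of IL-4. Ppan, a ribosome assembly factor, went from 8 ± 1 to 29.3 ± 11.5 at 2 h (log2 difference 1.69, adjusted p = 0.000936), and Nop58, a core protein of small nucleolar RNPs, from 84.0 ± 20.2 to 225 ± 31.6 (1.43, 0.000171). Gnl3 (1.65), Nolc1 (1.59), Rrp12 (1.53) and Ddx21 (1.49) rose at the same time. Dkc1 and Npm1 were the 2 not called, at -0.18 and 0.61. Gnl3, Nop58, Ppan, Wdr12 and Wdr43 overlap other annotated genes. The number higher at 2 h of IL-4 was 16 without replicate 1, 10 without replicate 2, 9 without replicate 3 and 19 when blocked by replicate number. The number at 1 h was 9 without replicate 1 and 2 without either of replicates 2 and 3, and at 4 h it was 14, 5 and 2.

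With LPS the same list split. At 2 h 8 were higher and 2 lower (median 0.39, beside -0.29 over all genes, of which 65.9% were called), and at 4 h 3 were higher and 3 lower (63.5% of all genes called), so fewer were called than the share over all genes. Wdr43 rose by 2.55 at 2 h of LPS (adjusted p = 5.34e-09), from 99.7 ± 16.8 to 585 ± 12.7, while Wdr12, of the Pes1 and Bop1 complex, fell by 3.50 at 4 h (1.05e-05), from 43.7 ± 5.77 to 3 ± 1, and Pes1 itself fell by 1.95 at 0.5 h (2.65e-06). The balance depended on the scaling, with 11 higher and 2 lower at 2 h of LPS by medians of ratios and 2 higher and 5 lower with equal totals, and the count higher was 4 without replicate 2 or replicate 3. In the direct comparison at 4 h, 16 of the 20 were lower and 2 higher with LPS than with IL-4, beside 68.0% of genes called. At 2 h 13 were lower and 2 higher, beside 68.6% of genes called. At 4 h 12 were lower by medians of ratios and 18 with equal totals, and the number was 12 without replicate 1, 14 without replicate 2 and 10 without replicate 3. These genes were listed with earlier results of these data known.

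**Figure D4:**
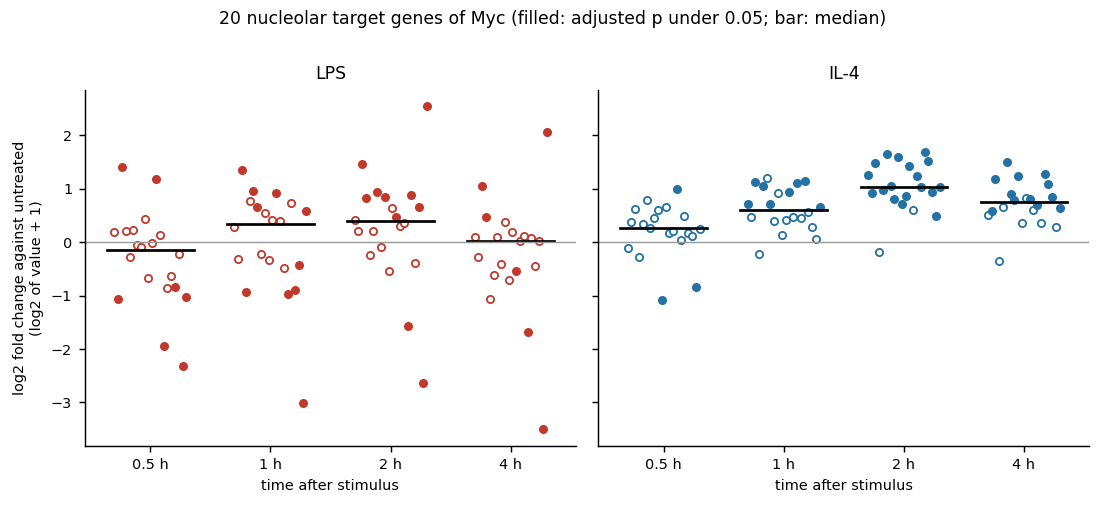
Log2 difference from untreated (log2 of value + 1, vertical axis) of 20 nucleolar target genes of Myc at 4 times after LPS (left) or IL-4 (right). Each point is 1 gene, filled where its adjusted p is under 0.05, and bars are medians, from -0.15 to 0.39 with LPS and from 0.27 to 1.03 with IL-4; at 2 h of IL-4, 18 of the 20 genes are called, all higher.

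Metabolic and growth genes known as Myc targets (19 genes, 18 tested) were less uniform. Over the LPS course 16 were called, 8 higher and 8 lower, near the 87.6% of all genes, and over the IL-4 course 10 were, 8 higher and 2 lower, beside 40.3%. Ccnd2, a cyclin that drives entry into the cell cycle, went from 8.33 ± 1.53 to 602 ± 25.2 at 2 h of LPS (log2 difference 6.03, SE 0.23, adjusted p = 5.53e-12). Hk2, which starts glycolysis, rose by 3.08 at 2 h of LPS (1.08e-07) and fell by 1.80 at 0.5 h of IL-4 (0.000222). Tfrc, the transferrin receptor for iron uptake, moved in the opposite order. It went from 34.3 ± 11 to 7 ± 3.61 at 1 h of LPS (-2.22, adjusted p = 0.000249) and to 250 ± 91.3 at 4 h of IL-4 (2.81, adjusted p = 0.000282). Odc1, the first enzyme of polyamine synthesis, rose by 2.55 at 0.5 h of LPS (1.68e-05), and Slc7a5, an amino acid transporter, rose by 2.05 at 2 h of IL-4 (0.00209) from values of 4 ± 1.73. Ccnd2 and Odc1 overlap other annotated genes. At 2 h of LPS 8 were higher and 6 lower, where 65.9% of all genes were called, or 3 and 9 with equal totals. At 2 h of IL-4, 7 were higher and 1 lower, where 27.6% of all genes were called. The number higher was 2 without replicate 3 and 4 without replicate 2.

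The protein-coding genes whose 9 group means, as log2(value + 1), went most like those of Myc were Nrbf2 (Pearson r = 0.914), Anxa3 (0.89), Dusp4 (0.869), Traf6 (0.866) and Pik3r1 (0.857), of 4182 genes compared. Dusp4, a phosphatase that switches off MAP kinases, had a group mean of 8.67 in untreated cells. LPS took it to 89.3 after 0.5 h and 4.33 after 2 h, and IL-4 to 110 after 0.5 h and 83.3 after 2 h. For Mxd1 they were Slc39a1 (0.978), H2-D1 (0.972), H2-K1 (0.968), Cpeb4 (0.967) and Birc3 (0.965), of 4183. Birc3, a target of NF-κB, had means of 225 in untreated cells, 2103, 1397, 1884 and 1835 from 0.5 to 4 h of LPS and 201 to 238 with IL-4. These correlations run over group means that share their libraries and are descriptions only.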

How the data were processed

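Libraries of chromatin-associated RNA from 27 BMDM samples were prepared, aligned and counted by the authors, and the submitters' processing notes name TopHat2 2.1.1, bedtools 2.29.2, DESeq2 and R 3.6.2 with the mm10 build. The deposited values are read counts per gene that the authors normalised and rounded to whole numbers, which makes the unit here a score and leaves raw depth unknown. Whether counting used strand is not given in the sources used here, so overlapping genes could share reads.

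Values were matched to samples by their labels, and genes with a value of at least 10 in at least 3 samples were kept, which left 13901. Tests were two-sided and used limma 3.58.1 (R 4.3.3) with its trend option on log2(value + 1), and p-values were adjusted by Benjamini-Hochberg across the genes kept, with a threshold of 0.05. The fit of a course held the 3 untreated samples and the 12 of its stimulus, and LPS was compared with IL-4 in a fit of all 27. Comparisons with untreated share the same 3 untreated samples. A count model was not used because the values are not counts. The fits were also run on simulated data with independent samples, which did not include the pairing by replicate number described below.

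The members, gene lists and alternatives were chosen with earlier results of these data known. From each list at most 6 genes per course were eligible to be named, those with the largest change among genes past the F test. Dkc1, Npm1 and Mxd3 were named after their values were seen, and some listed genes are not reported here by name. Genes most like Myc and Mxd1 were the 5 protein-coding genes of highest correlation among those overlapping no other gene and with a highest group mean of at least 50. The lists were other network genes, the Myc neighbour Pvt1, partners, protein turnover, nucleolar, metabolic and Myc-repressed targets, and cell type markers.

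Replicate numbers paired the samples. Over 6827 genes, the deviations from group means of samples with the same number were correlated at 0.163 to 0.851 (median 0.464) in all 108 pairs of samples. The alternatives were a pseudocount of 8, no filter, a mean of at least 50, medians-of-ratios rescaling, equal totals, the replicate number as a block, sample weights, and leaving out each replicate. Averaging replicates 2 and 3, and the list counts under each alternative, were chosen after seeing the data.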

Additional observations from a re-analysis of the deposited data

Results flagged for a closer look

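A direct test of LPS against IL-4 at the same time found 24 differences among the 32 tested for the 8 members, and each is given as LPS minus IL-4 on the log2(value + 1) scale. For Mxd1 they were 4.61 at 0.5 h, 2.55 at 1 h, 3.21 after 2 h and 3.57 after 4 h. For Mxi1 they were 0.62 and 1.28 at 0.5 and 1 h and -1.85 and -2.45 at 2 and 4 h, and for Max -2.14 at 0.5 h and 1.80 and 1.72 at 2 and 4 h, so both changed sign. Mxd4 differed by -3.82, -4.82 and -4.55 and Mnt by -1.77, -3.77 and -3.89 at 1, 2 and 4 h. Myc differed by -1.04, -1.97 and -0.97 at 0.5, 2 and 4 h, Mlx by -1.93, -2.12 and -1.46 at 0.5, 1 and 2 h, and Mga by -0.70 at 4 h. With 3 replicates a group, single samples were not tested as outliers, beside the fits with sample weights and without each replicate.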

How the results depend on the processing

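Of the calls against untreated, 26 of 38 were kept under every alternative run, as were 21 of 24 between LPS and IL-4 and 8 of 17 between successive times. Among the reversals, equal totals turned Max at 1 h of LPS to -0.45, Mga at 2 h of LPS to -0.37 and Mga between LPS and IL-4 at 2 h to -0.35. Counts of members called moved by over 1.5 times as follows. Equal totals gave 8 at 0.5 h of LPS. A mean of at least 50, which removes Mnt and Mlx from the tests, gave 3 at 1 h of LPS, 3 between LPS and IL-4 at 1 h and 0 from 2 to 4 h of IL-4. No filter gave 1 from 2 to 4 h of LPS, 0 from 0.5 to 1 h and 1 from 1 to 2 h of IL-4. The replicate block gave 2 from 0.5 to 1 h and 2 from 2 to 4 h of IL-4, and beside the calls named above it added Myc from 2 to 4 h of LPS (0.74, adjusted p = 0.0395), Max from 0.5 to 1 h of IL-4 (0.39, 0.0308) and Mga from 2 to 4 h of IL-4 (0.32, 0.00456), and changed no other call. Sample weights gave 5 from 2 to 4 h of LPS and 2 from 0.5 to 1 h and from 2 to 4 h of IL-4. Replicates 2 and 3 averaged, an alternative chosen after seeing the data, gave 0 from 2 to 4 h of LPS, 2 at 1 h and 1 at 4 h of IL-4, 0 at each IL-4 step and 2 over the IL-4 course. Leaving out 1 replicate gave 0 to 5 from 2 to 4 h of LPS and 3 to 5 between the stimuli at 0.5 h. With IL-4 it gave 2 to 4 members at 0.5 h, 2 to 5 after 1 h, 2 to 4 after 2 h and 1 to 2 after 4 h, with 0 to 2, 0 to 3 and 0 to 2 for the successive steps and 2 to 7 over the course. These fits have fewer samples. Normalised values hide the depth, so for values under about 10, as for Mxd4, Mnt and Mlx after LPS, the size of a fall is uncertain while its direction was kept.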

Other observations

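Of 12 genes that control how long Myc protein lasts, 10 were called over the LPS course, 4 higher and 6 lower by their largest change, where 87.6% of all genes were called, and 4 over the IL-4 course, 3 higher and 1 lower, where 40.3% were, so neither count exceeded the share over all genes. Ppp2r5a, a regulatory subunit of the phosphatase that acts on Myc, went from 295 ± 33.3 to 2007 ± 298 at 2 h of LPS (SD, n = 3; log2 difference 2.76, SE 0.17, adjusted p = 9.65e-10). Skp2, a ubiquitin ligase subunit, went from 165 ± 40.8 to 22.3 ± 10.3 at 1 h of LPS (-2.91, adjusted p = 1.04e-05). Usp36, a nucleolar deubiquitinase of Myc, rose by 1.10 at 2 h of IL-4 (9.18e-05), and Fbxw7, which marks Myc for degradation, fell by 0.32 at 4 h of IL-4 (0.00807). Ppp2r5a, Skp2 and Fbxw7 overlap other annotated genes.

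Of 6 genes known to be repressed by Myc together with Zbtb17, 5 were tested, and 4 were called over the LPS course (3 higher, 1 lower) and 2 over the IL-4 course (both higher), near the shares over all genes of 87.6% and 40.3%. Cdkn1a, which encodes the cell cycle inhibitor p21, rose from 99.3 ± 34.3 to 1505 ± 99 at 0.5 h of LPS (log2 difference 3.96, SE 0.25, adjusted p = 4.53e-09) and to 310 ± 50.7 at 2 h of IL-4 (1.67, adjusted p = 8.37e-05). Myc was above untreated in both of these groups, and a link between Myc and Cdkn1a was not tested. Cdkn2b, another cell cycle inhibitor, fell from 33.0 ± 15.7 to 3.33 ± 1.53 at 4 h of LPS (-2.89, adjusted p = 0.00183). Cdkn2b overlaps another annotated gene.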
